A study of Mus musculus with 6 samples.

Results

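Lymphoid priming and recombination genes are transcribed in early haematopoietic progenitors before these cells commit to the B or T lineage. The 10 genes described here were Rag1, Rag2, Dntt, Il12a, Satb1, Ikzf1, Mef2c, Cd27, Bcl11a and Tcf3, out of 18193 genes named on the array. Every probe set annotated to 1 of these symbols alone was taken, which gave 29 probe sets. The signal of each probe set, in arbitrary MAS5 units, was compared between bone marrow cells of Nr4a1 and Nr4a3 double knockout mice (DKO) and of wild-type mice (WT). The receptors Nr4a1 and Nr4a3 belong to the NR4A nuclear receptors. DKO mice carried Nr4a1-/- and Nr4a3-/- and were hybrids of the strains C57BL/6 and 129SvJ, while the labels give no strain for WT. The sort kept lineage-negative, Sca1-positive cells of mice aged 2 to 3 weeks. DKO and WT had 3 arrays each. An array measured a pool of 10 to 20 mice. An SD describes the spread between pools. An SE of a difference is that of limma, which also draws on the variance of other probe sets.

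V(D)J recombination assembles the antigen receptor genes of lymphocytes. The RAG1 and RAG2 proteins together cut the DNA at recombination signals, general repair factors join the ends, and terminal transferase, the product of Dntt, adds bases at the joints. Ikaros (Ikzf1), the E proteins made from Tcf3, Mef2c, Bcl11a and the chromatin organiser Satb1 are regulators that early lymphoid development uses. CD27, a receptor of the TNF receptor family, and Il12a, which encodes the p35 chain of interleukin 12, are transcribed in lymphoid-primed progenitors.

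The regions before the transcription starts of Dntt and Il12a are shown because these genes fell in DKO, and that of Rag1 because it is the recombinase gene whose groups did not overlap. They were chosen after the values were seen. They are the 250 bases upstream of a RefSeq start in assembly GRCm38.p6, read 5′ to 3′ on the gene's strand. Capitals mark the E-boxes CAGGTG and CAGCTG, sites of the kind that E proteins bind, and TGGGAA, the core of Ikaros sites, searched on both strands. Rag1 lies at chr2:101649533-101649782 on the minus strand, Il12a (the first of its 2 starts) at chr3:68690394-68690643 on the plus strand and Dntt at chr19:41029025-41029274 on the plus strand.
Rag1: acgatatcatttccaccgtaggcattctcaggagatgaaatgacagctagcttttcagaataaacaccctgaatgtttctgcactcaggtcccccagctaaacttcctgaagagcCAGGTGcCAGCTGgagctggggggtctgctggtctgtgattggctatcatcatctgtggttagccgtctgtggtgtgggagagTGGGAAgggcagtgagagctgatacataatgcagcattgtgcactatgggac
Il12a: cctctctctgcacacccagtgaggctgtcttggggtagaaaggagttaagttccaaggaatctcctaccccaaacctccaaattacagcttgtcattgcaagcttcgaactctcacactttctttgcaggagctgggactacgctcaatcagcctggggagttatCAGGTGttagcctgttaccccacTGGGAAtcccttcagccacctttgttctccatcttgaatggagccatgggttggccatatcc
Dntt: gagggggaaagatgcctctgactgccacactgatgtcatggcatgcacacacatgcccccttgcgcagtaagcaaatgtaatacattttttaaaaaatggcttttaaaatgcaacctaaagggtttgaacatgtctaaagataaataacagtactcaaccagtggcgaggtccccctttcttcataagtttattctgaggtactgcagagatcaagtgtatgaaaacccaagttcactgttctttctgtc
The Rag1 window held a CAGGTG starting 135 bases before the start, a CAGCTG at 128 bases and a TGGGAA at 52 bases. The Il12a window held a CAGGTG at 85 bases and a TGGGAA at 62 bases, and the Dntt window held none of the 3 motifs. None of them was in the window of the second Il12a start, at chr3:68691174-68691423, or in those of Rag2, Cd27, Mef2c, Tcf3 and Ikzf1. Over the 18 windows of the 10 genes, 3 held CAGGTG, 2 CAGCTG and 4 TGGGAA. No matches overlapped. The NR4A element AAAGGTCA was in 0 of the 18. Of 32851 windows of this length in the table, 1.34% held AAAGGTCA, 17.2% CAGGTG, 13.0% CAGCTG and 21.6% TGGGAA. These matches describe the letters of the windows and are not measured binding.

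Nr4a1, which checks the labels, had signals of 8.0, 22.4 and 33.8 in DKO against 1110.5, 1269.4 and 816.3 in WT. All 3 Nr4a3 probe sets were below the filter on low signals. Ly6a, which encodes Sca1, was not analysed here because no probe set was annotated to it alone. The summed signal of 7 stem cell markers was 9541 to 11362 in DKO and 22553 to 27159 in WT, with no overlap. No unsorted cells were measured, so these sums do not check the sort. WT replicate 2 stood apart from the other WT arrays in markers of mature cells. The summed neutrophil signal was 29022 to 50997 in DKO, against 36483, 82089 and 17202 in WT replicates 1, 2 and 3.

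Most of the lymphoid priming transcripts had lower signals in DKO cells, and Dntt and Il12a fell past the threshold, an adjusted p of 0.05 over all 27022 probe sets tested with limma. Dntt fell to 1217 ± 369 in DKO, against 4572 ± 653 in WT (SD, n = 3 each), at 1 of its 3 probe sets, and Il12a fell to 256 ± 44.3 in DKO, against 863 ± 321 in WT. Rag1 was at 250 ± 28.5 in DKO and 942 ± 543 in WT and did not pass. A filter removed the dimmest 40% of all probe sets by mean log2 value, and 27 of the 29 passed it. Among the 27, 2 fell and 0 rose, or 7.41%. Over the whole array 1.37% of tested probe sets were past the threshold, 0.563% lower and 0.807% higher in DKO. The difference, DKO minus WT on the log2(signal + 16) scale, was below 0 in 23 of the 27 and above 0 in 4, while 54.4% of all tested probe sets were below 0. The median difference of the 27 was -0.62, and that of all tested probe sets -0.051. An unadjusted limma p under 0.05 was found for 14 of the 27, or 51.9%, against 14.2% of all tested probe sets. In 11 of the 27, or 40.7%, every DKO array was below every WT array, against 11.1% of all tested probe sets. These counts are descriptions of probe sets that share genes and arrays. In sorted bulk cells, fewer cells of a type and less RNA per cell cannot be told apart.

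**Figure D1:**
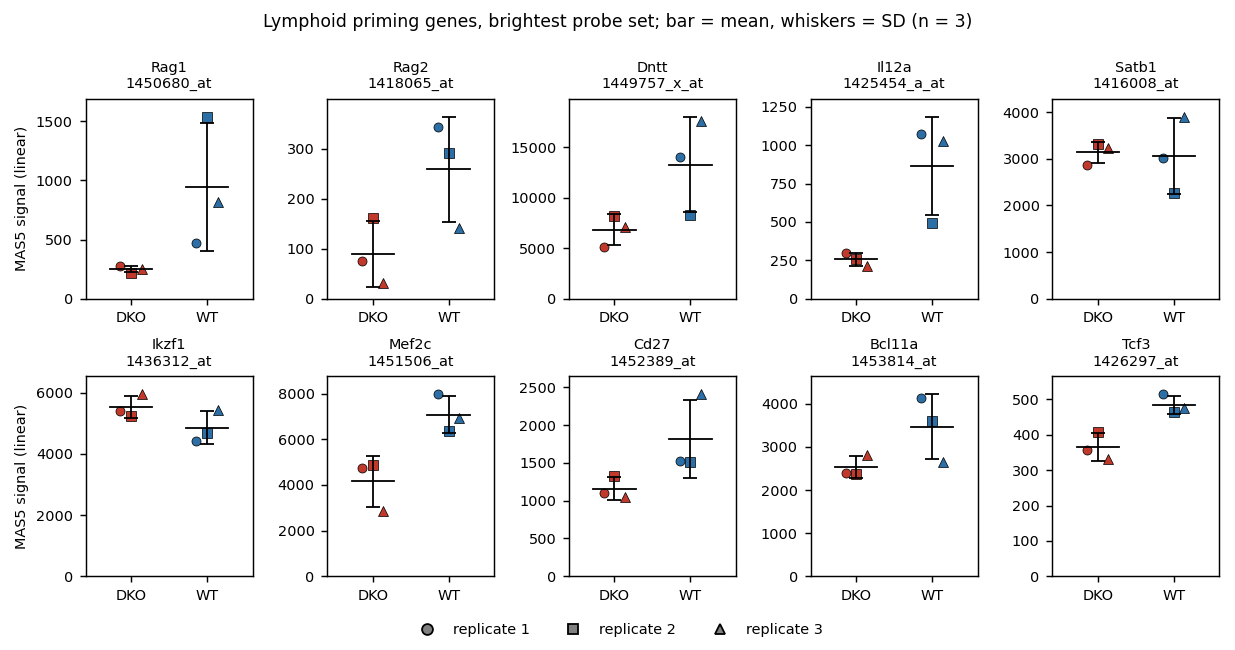
MAS5 signal (linear axis from 0) of the 10 genes at the probe set with the highest mean, for 3 DKO arrays and 3 WT arrays, with the mean as a bar and the SD as whiskers. The DKO points lie below all WT points for Rag1, Dntt, Il12a, Mef2c, Cd27 and Tcf3, and the groups overlap for Rag2, Satb1, Ikzf1 and Bcl11a.

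The recombinase genes were lower in DKO without passing the test. Rag1 had signals of 276.8, 220.1 and 253.7 in DKO, against 473.0, 1536.2 and 816.8 in WT. The 3 DKO arrays lay close together and below each WT array, and the WT arrays spread widely with WT replicate 2 on top. The log2 difference was -1.69 ± 0.40 (SE), with a limma adjusted p of 0.0653, and the DKO mean was 26.6% of the WT mean. Without WT replicate 2 the difference was -1.27 (adjusted p = 0.134), and without WT replicate 1 it was -2.10 and past the threshold (adjusted p = 0.0423). The mean level of 12 B lineage markers, on the log2 scale and centred on the 6 arrays, was -0.42, -0.18 and -0.75 in DKO, against 0.27, 1.5 and -0.42 in WT. The part of B lineage cells in the Rag1 difference was not tested.

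Rag2, the partner of Rag1 in the recombinase, had signals of 74.4, 160.9 and 31.5 in DKO, against 343.2, 291.1 and 141.7 in WT. The groups overlapped, since DKO replicate 2 lay above WT replicate 3. The log2 difference of -1.51 ± 0.54 did not pass (limma adjusted p = 0.224), and it was -1.11 with an offset of 64 in place of 16. Within WT, Rag1 was highest in replicate 2 while Rag2 was highest in replicate 1.

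Dntt was lower in DKO at all 3 of its probe sets, by different amounts. Probe set 1450545_a_at had signals of 1150.8, 1614.9 and 885.8 in DKO, against 4257.7, 4135.0 and 5322.4 in WT. The lowest WT signal was above 2 times the highest DKO signal. Its log2 difference was -1.93 ± 0.24, with a limma adjusted p of 0.00237. This call held whichever array was left out, with differences of -2.15 to -1.72 and adjusted p up to 0.0159, and ended when limma ran with no intensity trend (adjusted p = 0.0555).

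Probe set 1420166_at of Dntt had signals of 3818.0, 6082.0 and 3995.6 in DKO, against 10380.0, 6281.7 and 12855.0 in WT. Probe set 1449757_x_at had 5154.7, 8208.0 and 7135.0 in DKO, against 14001.5, 8257.1 and 17627.6 in WT. At both, DKO replicate 2 came within a few percent of WT replicate 2, and the groups did not overlap. Their log2 differences were -1.06 ± 0.26 and -0.92 ± 0.26, and limma's adjusted p of 0.0756 and 0.118 did not pass. Without WT replicate 2 both passed, at -1.35 and -1.23 (adjusted p = 0.0111 and 0.0148). In Affymetrix naming a suffix of _x marks probes that can also bind other sequences and _a marks probes shared by transcripts of 1 gene.

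The gap between these Dntt probe sets differed between the groups. The log2 value of 1450545_a_at minus that of 1449757_x_at was -2.15, -2.33 and -2.99 in DKO, against -1.71, -0.99 and -1.72 in WT. The mean gap was -2.49 ± 0.44 in DKO and -1.48 ± 0.42 in WT (SD, n = 3 each), and the groups did not overlap. The pair was chosen as the probe sets with the lowest and highest difference, so the gap is a description with no test.

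**Figure D2:**
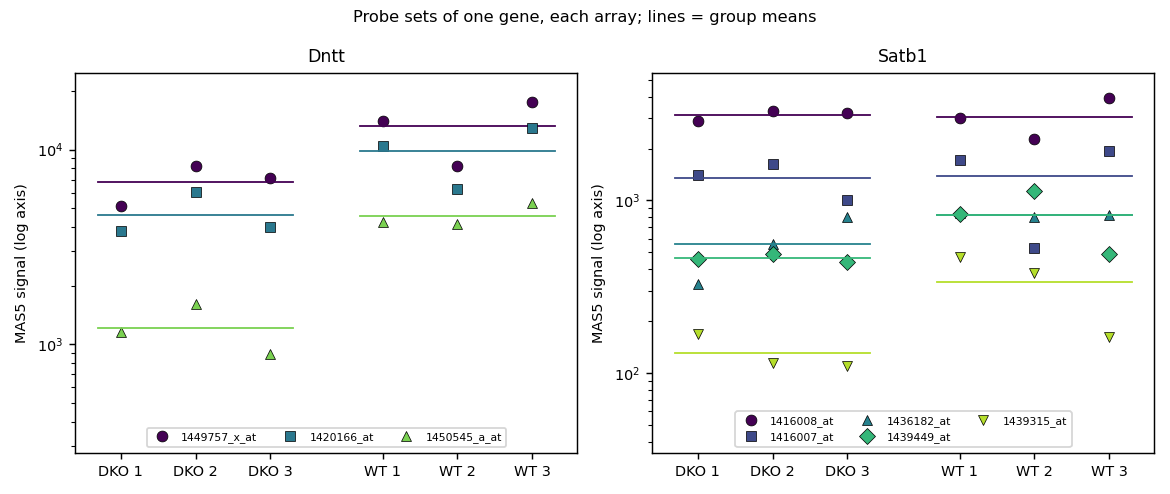
MAS5 signal (log axis) of the 3 probe sets of Dntt and the 5 of Satb1 on each DKO and WT array, with a line at each group mean. The Dntt probe set 1450545_a_at is separated most between the groups, and the Satb1 probe sets 1416008_at and 1416007_at have nearly the same mean in both groups while the other 3 have lower DKO means.

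Il12a had signals of 298.6, 259.3 and 210.1 in DKO, against 1070.8, 493.1 and 1024.3 in WT. The groups did not overlap, and WT replicate 2 was the lowest of the WT arrays. The log2 difference was -1.63 ± 0.36 at a limma adjusted p of 0.0498, just inside the threshold. Of the 6 fits on 5 arrays only that lacking WT replicate 2 kept the call (-1.98, adjusted p = 0.00965), and adjusted p reached 0.208 without WT replicate 1. The call also ended with a pseudocount of 1, with no filter, with quantile normalization, with median centring, with a replicate block and without an intensity trend, at adjusted p of 0.0588 to 0.135.

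**Figure D3:**
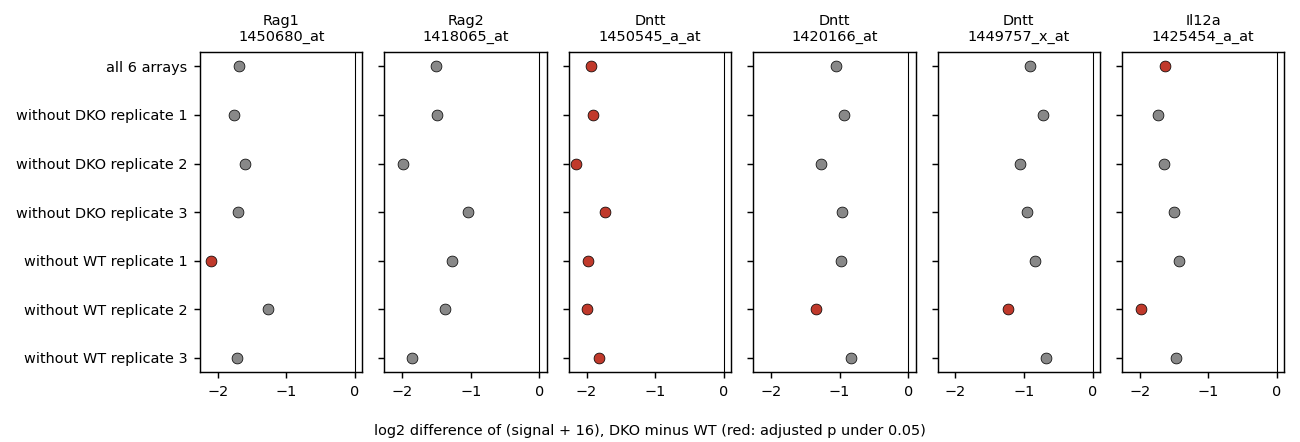
Log2 difference of (signal + 16), DKO minus WT, of the Rag1, Rag2, Dntt and Il12a probe sets with all 6 arrays and with each array left out, in red where the adjusted p is under 0.05. The Dntt probe set 1450545_a_at is red in all 7 rows, and Il12a is red with all arrays and without WT replicate 2.

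Among the receptor and regulator genes none passed the threshold. Cd27 had signals of 1104.4, 1326.5 and 1046.5 in DKO, against 1524.5, 1513.1 and 2405.5 in WT. All DKO arrays were lower than all WT arrays, and the log2 difference was -0.61 ± 0.24 (limma adjusted p = 0.279), or -0.39 without WT replicate 3.

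Mef2c, a MADS-box transcription factor, was lower at each of its 5 probe sets, with log2 differences of -0.81 to -0.46 and adjusted p of 0.101 to 0.415. Probe set 1451506_at had signals of 4760.3, 4856.8 and 2862.9 in DKO, against 7965.1, 6362.2 and 6916.3 in WT. Probe set 1424852_at had 1738.6, 2117.1 and 1415.3 in DKO, against 3222.4, 2385.8 and 3674.2 in WT. At these 2 the groups did not overlap, with log2 differences of -0.80 ± 0.21 and -0.81 ± 0.23. Probe set 1451507_at had 4172.9, 5705.3 and 3156.4 in DKO, against 6998.3, 5646.2 and 6960.4 in WT. Here DKO replicate 2 lay just above WT replicate 2, and the log2 difference was -0.62 ± 0.21. Without DKO replicate 3 it was -0.41. At 1421027_a_at and 1421028_a_at the groups overlapped, with differences of -0.46 ± 0.20 and -0.78 ± 0.41, the second of which was -0.40 without DKO replicate 3.

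Bcl11a, a zinc finger repressor that lymphoid development needs, had 7 probe sets, of which 6 were tested. All 6 were lower, with log2 differences of -0.73 to -0.11, and the groups overlapped at each. Probe set 1453814_at had signals of 2407.8, 2362.9 and 2820.9 in DKO, against 4140.9, 3604.0 and 2653.6 in WT, where WT replicate 3 fell between the DKO arrays. Its log2 difference was -0.43 ± 0.21 (limma adjusted p = 0.367). The difference furthest from 0 was that of 1426552_a_at, at -0.73 ± 0.33 (adjusted p = 0.350), and it was -0.38 without DKO replicate 3 and -0.48 without WT replicate 1. The probe sets 1456632_at, 1419406_a_at and 1457072_at were at -0.39 ± 0.24, -0.46 ± 0.23 and -0.17 ± 0.25. With an array left out 1456632_at came to -0.17 (without DKO replicate 3) and -0.25 (without WT replicate 1), and 1457072_at ran from -0.43 to 0.0191. The dim probe set 1447335_x_at was at -0.11 ± 0.47, and ran from -0.39 to -0.021 with an array left out. The seventh, 1447334_at, was below the filter with signals of 20.8 to 59.0 in DKO and 28.3 to 106.7 in WT.

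Satb1 gave different answers by probe set. Probe set 1416008_at had signals of 2869.2, 3314.7 and 3223.7 in DKO, against 3017.7, 2276.2 and 3899.4 in WT, a log2 difference of 0.064 ± 0.21. Probe set 1416007_at was at 0.12 ± 0.42, with WT signals as far apart as 530.9 and 1937.3. These differences were well within the spread of the arrays. Without WT replicate 2 they were -0.13 and -0.46.

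The other 3 Satb1 probe sets were lower in DKO. Probe set 1439449_at had 458.4, 487.3 and 441.7 in DKO, against 830.8, 1141.4 and 491.1 in WT, and 1436182_at had 329.0, 557.3 and 798.6 in DKO, against 843.4, 804.4 and 822.5 in WT. Neither overlapped, although the highest DKO value came close to the lowest WT value at both. Their log2 differences were -0.73 ± 0.33 and -0.63 ± 0.33, and 1439315_at was at -1.16 ± 0.45, where the groups overlapped. Without WT replicate 2 the difference of 1439449_at was -0.45, and without DKO replicate 1 that of 1436182_at was -0.30. None of the 5 Satb1 probe sets passed (limma adjusted p of 0.255 to 0.937).

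Ikzf1 was the 1 gene with all its tested probe sets higher in DKO. Probe set 1436312_at had 5411.4, 5237.6 and 5944.9 in DKO, against 4426.3, 4698.3 and 5452.4 in WT, a log2 difference of 0.19 ± 0.16 (limma adjusted p = 0.637). It was 0.30 with median centring and 0.13 without WT replicate 1. Probe set 1421303_at was at 0.27 ± 0.31 and was -0.017 without DKO replicate 2. The groups overlapped at both.

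Tcf3, the E2A gene, had signals of 357.5, 407.6 and 331.5 in DKO, against 514.0, 465.6 and 476.4 in WT at 1426297_at. The groups did not overlap, and the log2 difference was -0.40 ± 0.29 (limma adjusted p = 0.582). The probe set 1427764_a_at was at -0.025 ± 0.52, and 1452542_x_at was below the filter at 8.2 to 13.7 in DKO and 8.9 to 13.4 in WT. Of the 11 probe sets without overlap, 3 belonged to Dntt, 2 to Mef2c and 2 to Satb1, and Rag1, Il12a, Cd27 and Tcf3 had 1 each.

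**Figure D4:**
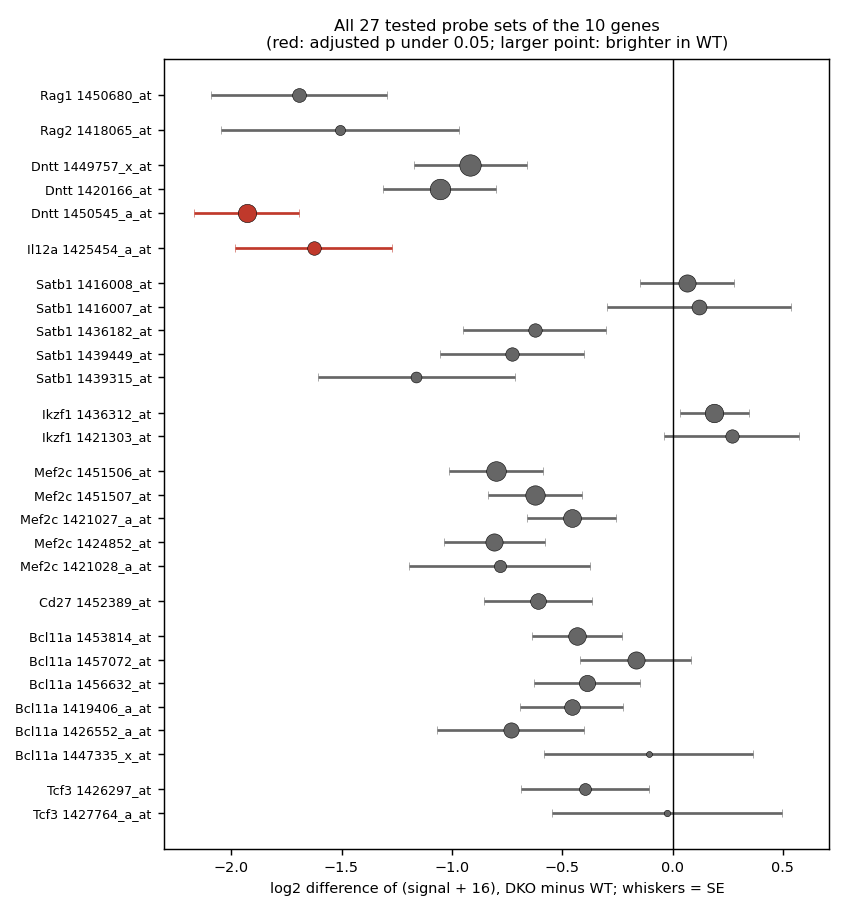
Log2 difference of (signal + 16), DKO minus WT, with its SE for the 27 tested probe sets, in red where the adjusted p is under 0.05 and with larger points for brighter WT means. The red points are 1450545_a_at of Dntt and 1425454_a_at of Il12a, and points to the right of 0 belong to Satb1 and Ikzf1 alone.

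Other early lymphoid genes were given at 1 probe set per gene, the one with the highest mean log2 value. Over 11529 genes represented in this way the median log2 difference was -0.0078, and over the 10 genes above it was -0.71, with 8 lower. Of the 11529 genes, 197 were past the threshold in either direction. Of 7 other early lymphoid genes tested, 1 fell and 0 rose, with a median of -0.66. Flt3, a cytokine receptor of lymphoid-primed progenitors, was the one that fell. Its signals were 555.0, 577.9 and 605.5 in DKO, against 1797.5, 1347.3 and 2067.0 in WT (log2 -1.54 ± 0.25, limma adjusted p = 0.0108). The call ended without WT replicate 1, DKO replicate 1 or DKO replicate 3, at adjusted p of 0.0629, 0.0593 and 0.0545, and with no intensity trend (0.0660). Il7r, which encodes the interleukin 7 receptor chain of lymphoid progenitors, was at 0.40 ± 0.34 (adjusted p = 0.647), with overlapping groups.

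Of 9 tested transcription factors of lymphoid commitment, none passed and 6 were higher in DKO, with a median of 0.11. The lowest p in that list was that of Ebf1, a B cell commitment factor, with signals of 68.6, 111.7 and 130.4 in DKO, against 194.4, 411.9 and 228.9 in WT (log2 -1.27 ± 0.43, limma adjusted p = 0.199). Foxo1, a regulator of Rag transcription in B cells, was at -0.70 ± 0.31 (adjusted p = 0.341) and at -0.34 without DKO replicate 1.

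Relatives of the regulators and the ID proteins, which bind E proteins and block them, gave 1 rise and 0 falls among 12 tested genes, with a median of -0.12. Id2 rose, with signals of 1330.8, 1798.8 and 2338.9 in DKO, against 198.4, 525.8 and 234.7 in WT (log2 2.54 ± 0.37, limma adjusted p = 0.00614). Its DKO signals were all more than 2 times the highest WT signal, and the call ended without DKO replicate 3 (adjusted p = 0.0573) and with no intensity trend (0.0609). T and NK cells also express Id2, and 6 of 12 tested T and NK markers rose and 0 fell. Their summed signal was 8724 to 12303 in DKO and 784 to 1593 in WT. The part of these cells in the Id2 rise was not tested. The E protein genes Tcf4 and Tcf12 were at -0.40 ± 0.19 and -0.10 ± 0.18 and did not pass. Of the 12 genes 9 were lower and 3 higher in DKO. Besides Id2, the higher genes were Bcl11b, a relative of Bcl11a, and Ikzf3, a relative of Ikzf1. Bcl11b was at 2.00 ± 0.46 without overlap (limma adjusted p = 0.0611). Ikzf3 was at 1.64 ± 0.49 with overlap (limma adjusted p = 0.143).

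The machinery that joins DNA ends after RAG cutting was measured at 11 genes, of which none passed and 9 were lower, with a median of -0.27 on the log2 scale. The smallest p were those of the ligase gene Lig4, at -0.93 ± 0.46, and of the repair factor gene Trp53bp1, at -0.30 ± 0.15 (limma adjusted p = 0.383 and 0.386). With median centring Trp53bp1 was at -0.19. Lig4 had signals of 233.5, 283.4 and 198.0 in DKO, against 371.8, 1008.9 and 262.5 in WT. Without WT replicate 2 its difference was -0.38.

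Partners of interleukin 12 and of CD27 gave no call among 5 tested genes, 4 of them lower, with a median of -0.29. Ebi3, whose product pairs with p35 to form interleukin 35, had signals of 873.4, 478.7 and 797.3 in DKO, against 1642.7, 1288.4 and 1843.5 in WT. The groups did not overlap, and the log2 difference was -1.16 ± 0.28 (limma adjusted p = 0.0720, or 0.0495 with array weights). Il12b, the p40 chain that pairs with p35 in interleukin 12, was below the filter at 3.5 to 19.8 in DKO and 3.4 to 35.1 in WT. The receptor gene Il12rb1 was at 0.79 ± 0.48 (adjusted p = 0.490), and at 0.38 without WT replicate 1 and 0.43 without DKO replicate 3.

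**Figure D5:**
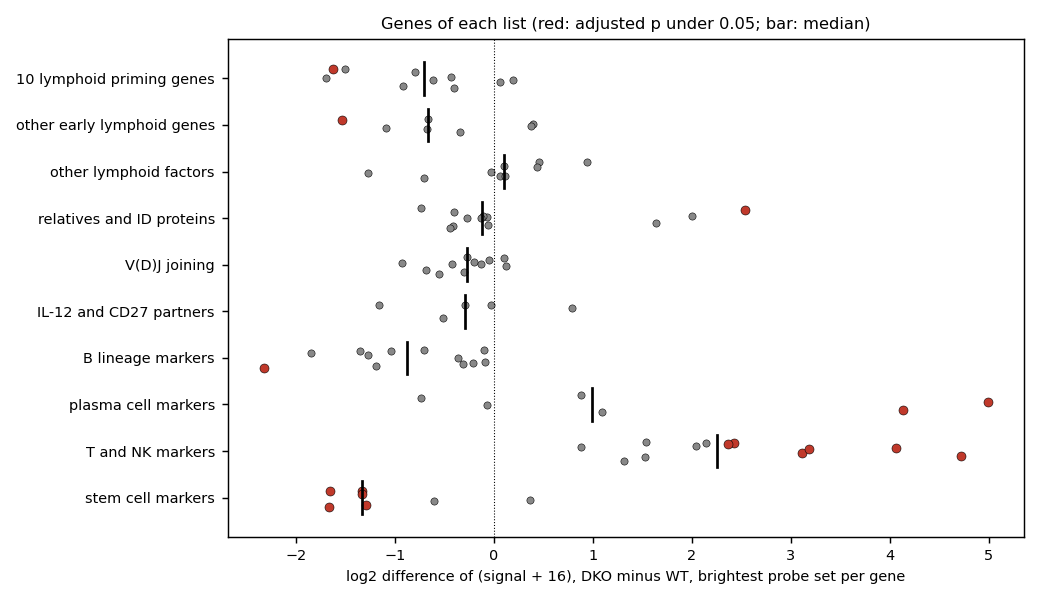
Log2 difference of (signal + 16), DKO minus WT, of each tested gene at 1 probe set per gene, by list, with the median as a bar and in red where the adjusted p is under 0.05. The medians lie at -0.71 for the 10 lymphoid priming genes, -0.66 for other early lymphoid genes, -0.87 for B lineage markers and 2.25 for T and NK markers.

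Markers of cells that also carry lymphoid transcripts moved beside these results. Of 12 tested B lineage markers all were lower, 1 fell and 0 rose, with a median of -0.87. The groups did not overlap at Cd79b, Cd72 and Blk and overlapped at the other genes of the list. Cd79a had signals of 67.3, 98.7 and 97.2 in DKO, against 113.6, 361.3 and 26.5 in WT. Igll1 had 336.6, 428.7 and 131.8 in DKO, against 295.2, 1353.1 and 220.5 in WT. At both, WT replicate 2 was far above all other arrays. Cd72, an inhibitory receptor of B cells, was the one that fell, at -2.32 ± 0.38 (limma adjusted p = 0.0117). The call ended without WT replicate 1 or DKO replicate 3, at adjusted p up to 0.0634, and without an intensity trend (0.0727). The summed B lineage signal overlapped, at 16546 to 22072 in DKO and 17014 to 38562 in WT. Without its brightest gene, Cd24a, which many marrow cells express, it was 1863 to 2649.5 in DKO and 3283.5 to 12341 in WT, with no overlap and WT replicate 2 the highest. Plasma cell markers gave 2 rises and 0 falls among 6 tested genes, the immunoglobulin genes Igha and Jchain. Of the 6, 4 were higher and 2 lower in DKO. The lower genes were Sdc1, at -0.74 ± 0.34 without overlap (limma adjusted p = 0.351), and Mzb1, at -0.068 ± 0.41 with overlap. The summed signal of the 6 was 19565 to 47092 in DKO and 3132 to 4096 in WT. Markers of plasmacytoid dendritic cells gave 1 rise, of Irf8, among 7, with a summed signal of 3754 to 5621 in DKO and 1945 to 3493 in WT. Without Irf8, their brightest gene, the sums overlapped at 1660 to 2719 in DKO and 1652 to 2548 in WT. The Irf8 call ended without WT replicate 1 or any 1 of the DKO arrays (adjusted p up to 0.0861) and without an intensity trend (0.123). The T and NK markers with the smallest p were the granzyme genes Gzma and Gzmb, Thy1 and the T cell receptor complex gene Cd3e, at log2 differences of 2.36 to 4.72. Of 8 monocyte and dendritic cell markers 5 rose and 0 fell, led by H2-Ab1, Ccr2, H2-Aa and Ly86 at 2.06 to 2.96, and the summed signals overlapped at 17968 to 20938 in DKO and 8463 to 26688 in WT. Lyz2, the brightest gene of that list, was the 1 of the 8 that was lower in DKO. Its groups did not overlap (log2 -0.86 ± 0.33, limma adjusted p = 0.257). Without Lyz2 the summed signals were 12298 to 14969 in DKO and 2151 to 6055 in WT, with no overlap. The Ly86 call ended without WT replicate 1 or any 1 of the DKO arrays (adjusted p up to 0.0810) and with no intensity trend (0.0532), where that of H2-Aa ended too (0.0555). Of 8 mast cell, basophil and eosinophil markers 7 rose and 0 fell, led by Ms4a2, Mcpt8, Cpa3 and Fcer1a at 2.94 to 5.38. The summed signal of these 8 markers was 25458 to 31974.5 in DKO and 1360 to 12538 in WT. WT signals of Cd3e (3.3 to 18.7), Gzmb (1.4 to 38.5) and Fcer1a (4.9 to 16.6) were all under the filter limit of about 53.2. These 3 genes passed the filter through their DKO signals alone, and Cd3e and Fcer1a passed it in only 3 fits on 5 arrays. The lists also held Ccr3 and Ncr1, with WT signals of 3.4 to 43.0 and 2.6 to 45.6, and Blk, with DKO signals of 3.4 to 50.5. These were under the limit too, so Ccr3 and Ncr1 passed through their DKO signals and Blk through its WT signals. Ccr3 is among the genes that rose. The sizes of the Cd3e, Gzmb and Fcer1a differences depend on the settings. With a pseudocount of 64 Cd3e was at 1.93 and Fcer1a at 1.73, both still past the threshold. Gzmb ran from 3.44 to 6.09 over the settings that kept all arrays. The sums of the plasma cell, T and NK, mast cell and stem cell lists also did not overlap without the brightest gene of each. For plasma cells that gene was Igha, and the rest of the sum still held Jchain. None of the 7 neutrophil and 5 erythroid markers passed. The smallest p there were those of Camp and Mmp8, at -0.42 ± 0.50 and -0.35 ± 0.72, and of Gata1 and Car1, at 1.27 ± 0.34 and 2.48 ± 0.73. Car1 passed without WT replicate 2 (3.45, adjusted p = 0.00550) and with array weights (adjusted p = 0.0491), and was 1.51 without WT replicate 3. Of the 7 stem cell markers 5 fell and 0 rose, led by Mecom, Mllt3, Hlf and Procr at -1.66 to -1.29. The calls of Hlf and Procr ended without WT replicate 1 (adjusted p = 0.0581 and 0.0547), and those of all 4 without an intensity trend. Slamf1 was the 1 of the 7 that was higher in DKO, at 0.37 ± 0.38 with overlapping groups (limma adjusted p = 0.725). The part of any of these cells in the lower lymphoid priming signals was not tested.

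The genes most like Rag1 across the 6 arrays were Nectin3, an adhesion gene, Sned1 and 9330159M07Rik. Likeness was the mean absolute difference between log2 values after each gene was centred on its mean over the 6 arrays, which was 0.15, 0.17 and 0.20. Nectin3 had signals of 96.4, 111.6 and 69.3 in DKO, against 178.0, 582.9 and 320.9 in WT, with WT replicate 2 on top as for Rag1. Sned1 and 9330159M07Rik were dim in DKO, at 33.9 to 55.1 and 32.3 to 75.7, near the filter limit of about 53.2. Their likeness to Rag1 is limited by this low signal. Among the other lymphoid priming genes Cd27 came nearest to Rag1, at 0.56 and rank 565 of 11528, followed by Il12a at 0.61 and rank 925.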

How the data were processed

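RNA of 6 pools was measured on Affymetrix arrays. The deposited values are linear intensity values (MAS5 signals) per probe set, made with MAS5 (version not given in the sources used here), per the submitters' processing notes. Their trimmed mean, with 2% left out at each end, was 500.0 on each array, and this scaling was kept. Median signals were 91.6 to 122.5, and the number of arrays limits the precision. Columns were matched by sample, with 0 columns of other samples. No batch or date is given in the sources used here.

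Of 45101 probe sets, 64 controls were left out. Genes were named from the platform annotation where it gave 1 symbol (34945 probe sets), with 932 of several symbols and 9160 unnamed there. All 29 probe sets of the 10 genes matched the RefSeq gene identifier.

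Signals became log2(signal + 16), which understates differences of dim genes. The 40% with the lowest mean, below a signal of about 53.2, were left out, and limma 3.58.1 (R 4.3.3) compared DKO with WT at the other 27022 (lmFit and eBayes with an intensity trend, two-sided, without a block), with Benjamini-Hochberg adjustment over the 27022. "Rose" and "fell" mean an adjusted p under 0.05. Errors are SD for signals and, for differences, the SE from the moderated variance of limma, which can be wider or narrower than the spread of the pools. The script was tested on simulated data with 3 arrays per group. It recovered 4% of log2 changes of 1, 58% of changes of 2 and 92% of changes of 3. A gene that did not pass is thus not shown to be unchanged. The 10 genes and all lists were chosen with earlier results of these data known.

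Named are every probe set of the 10 genes, Nr4a1 and Nr4a3, the 3 genes most like Rag1, and, per list, the genes past the threshold (at most 4, by smallest p) or else the 2 of smallest p. Il7r, Tcf4, Tcf12, Il12b, Sdc1, Mzb1, and Cd24a and Lyz2 as the brightest genes of their lists, were chosen after their values were seen. So were Bcl11b, Ikzf3, Cd79a, Cd79b, Igll1, Blk, Ccr3, Ncr1 and Slamf1. Other settings tried were a pseudocount of 1 or 64, no filter or one at 60%, quantile normalization, median centring, no intensity trend, array weights, a replicate block and each array left out. Promoter sequences are RefSeq's (GRCm38.p6). The figures used matplotlib 3.10.9.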

Additional observations from a re-analysis of the deposited data

How the results depend on the processing

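Of the 27 tested probe sets of the lymphoid priming genes, 2 were past the threshold. The count was 1 with a pseudocount of 1, with no filter, with quantile normalization, with median centring and with a replicate block, in each case 1450545_a_at of Dntt, and 4 with array weights. Without an intensity trend limma called 0, with 9 at an unadjusted p under 0.05. With an array left out it called 1 to 4. The 4 calls without WT replicate 2, as with array weights, were the 3 probe sets of Dntt and that of Il12a, and without WT replicate 1 Rag1 took the place of Il12a. Over the fits on 5 arrays the median difference ran from -0.71 to -0.46, and it was -0.51 with median centring, which moved the median of all tested probe sets by 0.11. Over the whole array the 370 calls became 208 with no filter, 88 without an intensity trend, 563 with array weights and 104 to 469 with an array left out.

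Differences near 0 changed sign. With an array left out, that of Satb1 ran from -0.13 (without WT replicate 2) to 0.25 at 1416008_at and from -0.46 (without WT replicate 2) to 0.45 at 1416007_at, where it was also -0.028 without DKO replicate 2. Ikzf1 at 1421303_at ran from -0.0169 (without DKO replicate 2) to 0.54, and Bcl11a at 1457072_at from -0.43 to 0.0191 (without WT replicate 1). Tcf3 at 1427764_a_at ran from -0.49 to 0.29, above 0 without WT replicate 1, WT replicate 3 or DKO replicate 1. Of the neutrophil markers, Camp ran from -0.98 to 0.30 and Mmp8 from -1.11 to 0.57, both above 0 without WT replicate 2. With array weights the difference was -0.00081 for Satb1 at 1416008_at, -0.0342 at 1416007_at and 0.0117 for Mmp8. Tcf3 at 1427764_a_at was 0.0155 with a pseudocount of 1, 0.0169 with quantile normalization and 0.0823 with median centring. The cause was not tested.

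Same-numbered arrays correlated at 0.14, -0.03 and 0.05 in their deviations from the group means, and differently numbered arrays at -0.13 to 0.06. With 3 arrays per group these values cannot decide whether the numbers pair the pools. The replicate block gave 312 calls over the whole array. Probe sets near the filter, such as 1447335_x_at of Bcl11a, are limited by their low signal.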
